A study of Mus musculus with 6 samples.

Results

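Neurog1, Neurog2, Eomes, Insm1, Nhlh1, Neurod1, Neurod2, Neurod4 and Neurod6 encode transcription factors that act in sequence as a neural progenitor turns into a neuron. They were chosen by gene symbol, and all 9 were measured among the 19938 genes that the arrays gave with a symbol of their own. Each of the 9 genes had 1 such probe set. The cells came from a mouse embryonic stem cell line of 129SVEV origin, in which GFP was knocked in behind the coding region of Bcl11b, the gene for CTIP2. They were grown as floating aggregates by the SFEBq method, with inhibitors of TGF-beta receptors and of WNT in the first days, and both sorted fractions share this line, its reporter and its neomycin cassette. CTIP2:GFP+ and CTIP2:GFP- cells were sorted on day 11, day 12 and day 13, with 1 array for each fraction and day, and the sources used here do not say how many clones were used. A signal is the log2 value from the RMA method that the authors deposited, and a difference is CTIP2:GFP+ minus CTIP2:GFP- on that scale.

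Neurogenins are proneural factors of the basic helix-loop-helix (bHLH) family. They pair with E proteins, bind the DNA letters of an E-box, switch on Notch ligands and the next factors of the cascade, and are held back by Hes, Hey and Id proteins. In the developing cortex, Neurog2 drives radial glia towards glutamatergic neurons, Eomes (TBR2) and Insm1 mark and help to make intermediate progenitors, and Neurod factors act in the cells that have left or are leaving division. The factors of this cascade are mostly transient, while Neurod2 and Neurod6 persist in cortical projection neurons.

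The day 13 CTIP2:GFP- array stood apart from the others, its signals spreading by an SD of 1.11 where the other 5 arrays had 1.29 to 1.48, and it enters every difference of day 13. The days take the place of replicates, and the labels name no repeated culture within a day. Each limma p-value between the fractions, paired by day, thus rests on how much the difference varied from day to day. It also rests on the variance of all genes, towards which limma draws that of each gene (2 residual and 3.80 prior degrees of freedom). Bcl11b itself was higher in CTIP2:GFP+ cells on each day, by 2.32, 1.64 and 1.65. Of the other markers of cortical identity, Pax6 had signals of 6.02 to 8.79, Tbr1 of 4.91 to 6.79 and Emx1 of 5.76 to 6.25 on 5 arrays and 7.41 on the day 13 CTIP2:GFP- array. Emx2 lay at 4.89 to 6.37 and Slc17a7 at 5.17 to 5.48. An array gives the mean RNA of a fraction, so that fewer cells of a type and less RNA per cell cannot be told apart. Among markers of other cells, 11 ventral forebrain and GABA lineage genes had mean signals of 8.28, 7.10 and 8.18 in CTIP2:GFP+ cells. Those of CTIP2:GFP- cells were 6.34, 5.85 and 6.57, each in the order day 11, day 12 and day 13. The 7 other lists had means within 1 log2 unit of the median of all values. The mean signal over 6 sensory neuron genes was 5.12 to 5.56, over 6 mesenchymal genes 5.24 to 5.95, over 4 endothelial genes 4.80 to 5.23, over 5 pluripotency genes 4.60 to 5.33, over 5 epithelial genes 5.19 to 5.97 and over 4 choroid plexus genes 4.75 to 5.31, against a median of 5.41 over all values. Over 4 retinal genes it was 5.26 to 6.32. All 7 lists had their highest mean on the day 13 CTIP2:GFP- array. No gene of these 7 lists passed the test described next, and those lower in every CTIP2:GFP+ array were Six4 (-0.19), Pdgfrb (-0.77), Dcn (-0.31), Pecam1 (-0.40) and Kdr (-0.31). The part of such cells in the values of the 9 factors was not tested.

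None of the 9 factors passed the test between the fractions, and the direction was mostly towards CTIP2:GFP- cells. Neurog1, Neurod4 and Nhlh1 were on average over 2-fold lower in CTIP2:GFP+ cells, 3 of 9 factors against 1.02% of all genes, and 0 of 9 were over 2-fold higher, against 1.97%. The fractions were compared within days with limma, and p-values were adjusted over all 19938 genes by Benjamini-Hochberg. At an adjusted p under 0.05, 0 of 9 factors were higher, against 0.797% of all genes, and 0 of 9 were lower, against 0.567%. After a further quantile normalization of the arrays those calls over all genes were 52 higher and 99 lower in place of 159 and 113. At an unadjusted p under 0.05 from limma, 3 of the 9 were lower, against 5.96% of all genes, and 0 were higher, against 9.58%. The median difference of the 9 was -0.46, and that of all genes -0.05.

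**Figure D1:**
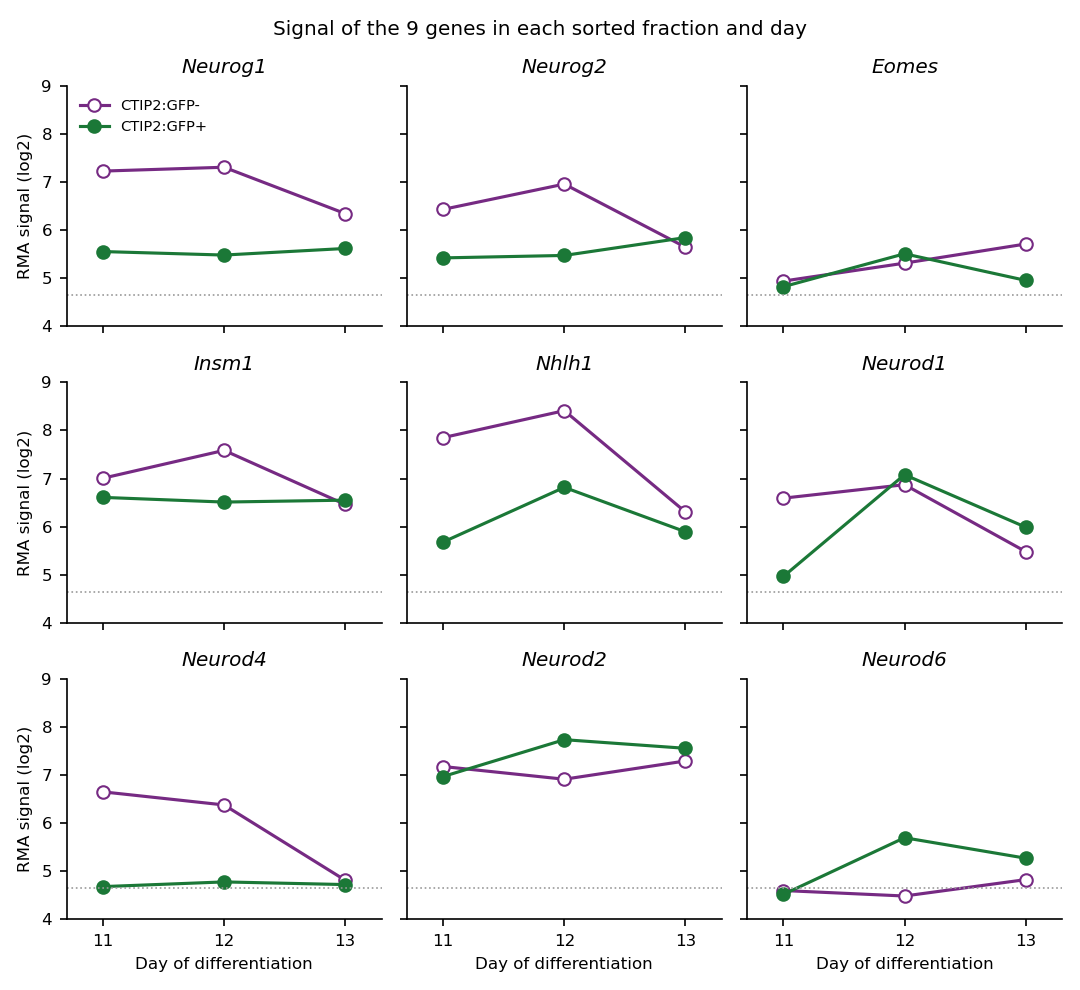
RMA signal (y axis, log2) of the 9 factors by day of differentiation (x axis). Filled points are CTIP2:GFP+ and open points CTIP2:GFP- arrays, with 1 array per point, and the dotted line is the 20th percentile of all values (4.65). Neurog1 lies at 5.48 to 5.62 in CTIP2:GFP+ cells and at 6.35 to 7.31 in CTIP2:GFP- cells, and for several factors the fractions come together on day 13.

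Neurog1, a neurogenin that starts neuronal differentiation, had signals of 5.56, 5.48 and 5.62 in CTIP2:GFP+ cells on day 11, day 12 and day 13. In CTIP2:GFP- cells its signals were 7.23, 7.31 and 6.35. Every CTIP2:GFP+ array lay below every CTIP2:GFP- array, and the CTIP2:GFP+ values were flat over the 3 days. These CTIP2:GFP+ values lay between the 54th and 57th percentile of their arrays, near the median of all values (5.41). The daily differences were -1.67, -1.83 and -0.73. Their mean was -1.41 (2.66-fold lower, standard error 0.24, 95% interval -2.01 to -0.81, adjusted p = 0.062 from limma). An exact permutation test on the 3 against 3 arrays, which did not keep the pairing by day, gave a two-sided p of 0.1. That is the smallest p that 3 against 3 unpaired arrays allow. Whether Neurog1 passed depended on the processing: over 10 alternatives its adjusted p from limma ran from 0.0022, with a filter at the median of all values, to 0.20 after median centring. Of 2 further tests, it passed with a trended and robust eBayes and did not pass with Student's test, under which the lowest adjusted p of the 9 factors was 0.396. It passed without day 11 (0.020) and without day 12 (0.022) and did not without day 13 (0.052).

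Neurog2, the neurogenin of the cortical glutamatergic lineage, had signals of 5.42, 5.48 and 5.85 in CTIP2:GFP+ cells (51st to 62nd percentile of their arrays). In CTIP2:GFP- cells they were 6.43, 6.96 and 5.65. The CTIP2:GFP- signal was the higher one on day 11 and day 12, while on day 13 the order turned. The daily differences were -1.01, -1.48 and 0.20, with a mean of -0.76 (standard error 0.32, 95% interval -1.56 to 0.03, adjusted p = 0.34 from limma). The mean depended on the days used, at -1.25 without day 13, -0.40 without day 12 and -0.64 without day 11.

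Eomes, the T-box factor that marks intermediate progenitors, gave little signal in either fraction. It lay at 4.83, 5.51 and 4.96 in CTIP2:GFP+ cells. In CTIP2:GFP- cells it lay at 4.94, 5.31 and 5.71. These values were between the 29th and 57th percentile of the probe sets of their arrays, and the fractions overlapped. The mean difference was -0.23 (standard error 0.21, 95% interval -0.75 to 0.30, adjusted p = 0.67 from limma), and without day 13 it was 0.039. Insm1, a zinc finger factor of intermediate progenitors and newborn neurons, was measured at a clear signal in both fractions, at 6.61, 6.51 and 6.55 in CTIP2:GFP+ cells. In CTIP2:GFP- cells its signals were 7.01, 7.59 and 6.46. It was lower in CTIP2:GFP+ cells on day 11 (-0.40) and day 12 (-1.08) and nearly level on day 13 (0.09), with a mean of -0.46 (standard error 0.24, adjusted p = 0.44 from limma). That mean was -0.15 without day 12 and -0.74 without day 13.

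Nhlh1, a bHLH factor of cells that have just left the cycle, had the widest range of the 9, from 5.68 to 8.41. Its signals were 5.68, 6.82 and 5.89 in CTIP2:GFP+ cells and 7.85, 8.41 and 6.30 in CTIP2:GFP- cells. On each day the CTIP2:GFP- array was higher, but the CTIP2:GFP+ array of day 12 lay above the CTIP2:GFP- array of day 13, so the fractions overlapped. The daily differences were -2.17, -1.60 and -0.41, with a mean of -1.39 (2.63-fold lower, standard error 0.33, 95% interval -2.21 to -0.58, adjusted p = 0.12 from limma). With a filter at the median of all values the adjusted p was 0.0053, and without day 12 it was 0.047.

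Neurod4, a bHLH factor that acts downstream of neurogenins, was close to the bottom of the arrays in CTIP2:GFP+ cells, at 4.68, 4.77 and 4.72. In CTIP2:GFP- cells it lay at 6.65 on day 11, at 6.37 on day 12 and at 4.81 on day 13. The CTIP2:GFP+ values were between the 22nd and 30th percentile of their arrays, and the day 13 CTIP2:GFP- value was at the 18th percentile of its own array. Every CTIP2:GFP+ array lay below every CTIP2:GFP- array, on day 13 by 0.09. The daily differences were -1.97, -1.60 and -0.09, with a mean of -1.22 (2.33-fold lower, standard error 0.36, 95% interval -2.12 to -0.33, adjusted p = 0.19 from limma). With the day 13 CTIP2:GFP- array left out and no pairing the difference was -1.79 (adjusted p = 0.012 from limma).

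Neurod1, which drives the terminal differentiation of neurons, changed its order from day to day. Its signals were 4.96, 7.08 and 5.99 in CTIP2:GFP+ cells. In CTIP2:GFP- cells they were 6.59, 6.87 and 5.48. The daily differences were -1.63, 0.21 and 0.51, so that CTIP2:GFP+ cells were lower on day 11 and higher on the later days. The mean difference was -0.30 (standard error 0.41, 95% interval -1.33 to 0.72, adjusted p = 0.76 from limma), and without day 11 it was 0.36.

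Neurod2 and Neurod6, which persist in cortical projection neurons, were the factors whose mean difference was above 0. Neurod2 had signals of 6.97, 7.73 and 7.55 in CTIP2:GFP+ cells and of 7.17, 6.91 and 7.29 in CTIP2:GFP- cells. The CTIP2:GFP+ arrays of day 12 and day 13 were the 2 highest of the 6, and that of day 11 lay among the CTIP2:GFP- arrays. The mean difference was 0.29 (standard error 0.22, 95% interval -0.25 to 0.83, adjusted p = 0.60 from limma), but 0.028 without day 12, 0.54 without day 11 and 0.055 after quantile normalization. Neurod6 was at 4.51, 5.69 and 5.27 in CTIP2:GFP+ cells and at 4.59, 4.48 and 4.82 in CTIP2:GFP- cells. All CTIP2:GFP- arrays and the CTIP2:GFP+ array of day 11 were low, between the 15th and 18th percentile of their probe sets, and the other CTIP2:GFP+ arrays were above them. The mean difference was 0.53 (standard error 0.26, 95% interval -0.11 to 1.16, adjusted p = 0.42 from limma), and it was 0.18 without day 12 and 0.83 without day 11.

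The separation of the fractions rested on few factors over all arrays and on more of them without day 13. In 2 of 9 factors, Neurog1 and Neurod4, all CTIP2:GFP+ arrays lay below all CTIP2:GFP- arrays, against 7.85% of all genes. In 0 of 9 they lay above, against 9.05%. For Neurod4 the separation was narrow and at low signal. Its highest CTIP2:GFP+ signal was 4.77 (day 12, 30th percentile of its array). Its lowest CTIP2:GFP- signal was 4.81 (day 13, 18th percentile). Without day 13 all CTIP2:GFP+ arrays lay below all CTIP2:GFP- arrays in 5 of 9, against 16.1% of all genes. The added factors were Neurog2, Insm1 and Nhlh1. By day, CTIP2:GFP+ cells were over 2-fold lower in 5 of 9 factors on day 11, against 1.30% of all genes. On day 12 this held for 5 of 9, against 2.43%, and on day 13 for 0 of 9, against 2.29%. The 5 factors were Neurog1, Neurog2, Neurod1, Neurod4 and Nhlh1 on day 11, and on day 12 Insm1 took the place of Neurod1. Day by day the 9 factors had median differences of -1.01, -1.08 and 0.09, while that of all genes was between -0.07 and 0.00.

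**Figure D2:**
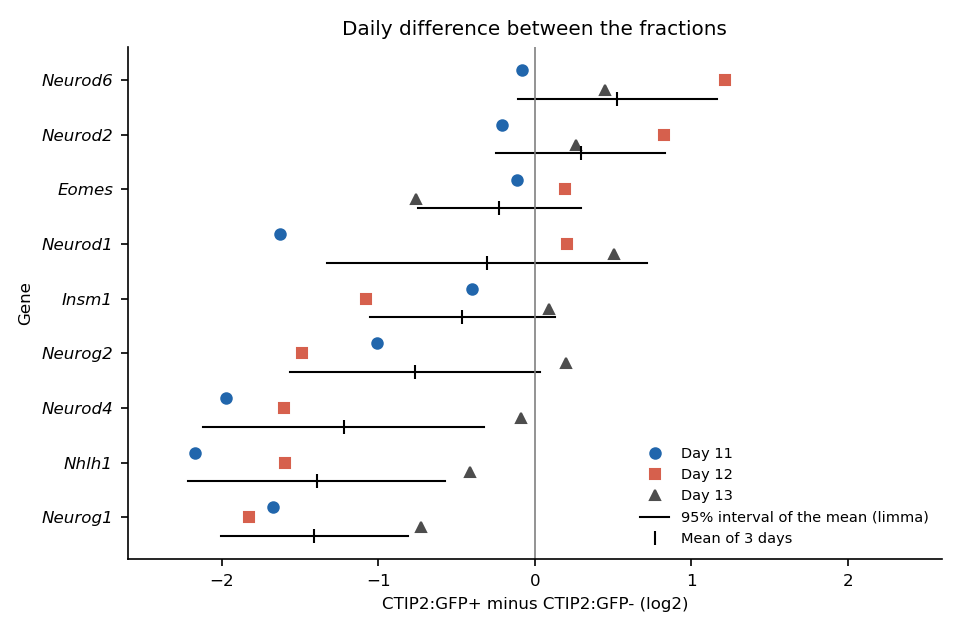
CTIP2:GFP+ minus CTIP2:GFP- (x axis, log2) for each factor (y axis, sorted by the mean). Coloured points are the 3 days, the black tick is their mean and the black line its 95% interval from limma. Day 13 lies nearer to 0 than day 11 and day 12 for Neurog1 (-0.73), Nhlh1 (-0.41) and Neurod4 (-0.09).

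Whether the difference changed with day was tested with limma, with day as a number. The call was made for 0 of 9 factors and for 0% of all genes. At an unadjusted p under 0.05, 1 of the 9 passed, Neurod4, whose difference moved by 0.94 per day (standard error 0.31, unadjusted p = 0.020, adjusted p = 0.999 from limma), against 0.542% of all genes. For 4 factors the day 13 CTIP2:GFP- signal was over 2-fold below the mean of day 11 and day 12. These were Neurog2, Neurod1, Neurod4 and Nhlh1, 4 of 9 against 8.20% of all genes. In the same array all 10 of 10 pan-neuronal genes had their lowest CTIP2:GFP- signal, with a list mean of 7.52 against 8.56 and 8.62 on day 11 and day 12, as did 17 of 18 genes known as proneural targets or marks of intermediate progenitors. The radial glial list had its lowest CTIP2:GFP- signal there in 4 of 12 genes, and its mean was 8.52 against 8.25 and 8.80. The share of all genes with their lowest CTIP2:GFP- signal in this array was not counted, so these counts have no background. The part of this array's narrow range and of its low neuronal genes in the values of the 9 factors was not tested. The level of a factor was also fitted against day within both fractions, and 0 of 9 passed, against 0% of all genes, and 0 of 9 at an unadjusted p under 0.05, against 0.873%.

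The CTIP2:GFP+ array of day 12 was the highest of its fraction for 6 of 9 factors, Eomes, Neurod1, Neurod2, Neurod4, Neurod6 and Nhlh1, though for Neurod4 at 4.77 against 4.72 on day 13. Neurod1 and Nhlh1 were there over 2-fold above the mean of the other CTIP2:GFP+ arrays, 2 of 9 against 0.622% of all genes. Neurod6 was the 1 factor that was over 2-fold higher in CTIP2:GFP+ than in CTIP2:GFP- cells on day 12 (1.21), against 1.48% of all genes. Tbr1, a factor of early-born cortical glutamatergic neurons, was also at its highest there, at 6.79 against 4.96 on day 11 and 5.84 on day 13. It was 1 of 5 genes among the 9 of the cortical excitatory lineage with their highest CTIP2:GFP+ signal on day 12, while Bcl11b (8.76, 7.91 and 8.54) and Emx1 (6.23, 6.005 and 6.25) had their lowest there. With 1 array a day this has no replicate check. The share of all genes with their highest CTIP2:GFP+ signal on day 12 was not counted, so the counts of such genes have no background. The day 12 array also had the widest spread of the CTIP2:GFP+ arrays, with an SD of 1.45 against 1.38 on day 11 and 1.37 on day 13.

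The factors other than Eomes and Neurod1 fell into 2 patterns over the 6 arrays, which were told apart after their values were seen. Neurog1, Neurog2, Insm1, Neurod4 and Nhlh1 correlated with each other at a Pearson r of 0.82 to 0.95, and Neurod2 with Neurod6 at 0.97. Between these 5 and these 2 factors r was -0.64 to -0.32. Over the 6 arrays Eomes had r of -0.16 to 0.33 with each other factor. Neurod1 had r of 0.38 to 0.76 with the 5 factors, 0.32 with Neurod2 and 0.37 with Neurod6. Without the day 13 CTIP2:GFP- array the ranges were 0.84 to 0.99 within the 5 factors, 0.98 for Neurod2 with Neurod6 and -0.68 to -0.34 between them. Neurod1 then had r of 0.40 to 0.74 with the 5 factors, 0.36 with Neurod2 and 0.37 with Neurod6. The values of Eomes depended on that array, without which its r was 0.04 to 0.82. With Neurod1 it was 0.82 in place of 0.27, and with Neurod6 0.53 in place of 0.33. The points are 3 pairs of arrays from the same sorts and so not independent, and r is given as a description. Among 5438 other genes with a range of at least 1, those most like Neurog1 were Ddr1 (r = 0.99), Apela (0.99) and Lfng (0.98), of which Lfng encodes a glycosyltransferase that modifies Notch. Those most like Neurog2 were Dennd2a (0.99), Lmo1 (0.99) and Wfs1 (0.99), and for Insm1 they were Antxr1 (0.997), Dnph1 (0.99) and Rcor2 (0.99), a partner of neuronal gene repression. For Nhlh1 they were Boc (0.99), a Hedgehog co-receptor, Dusp16 (0.99) and Spsb4 (0.99), and for Neurod4 Mybl1 (0.99), Igdcc3 (0.98) and Vrk3 (0.97). Tbr1 was the gene most like both Neurod2 (0.92) and Neurod6 (0.98), followed by Slc1a1 (0.88) and Sphkap (0.88) for Neurod2 and by Pcp4 (0.96) and Sphkap (0.95) for Neurod6. For Neurod1 they were Gfra1 (0.98), Nav2 (0.97) and Pfkp (0.97), and for Eomes Zic2 (0.97), Caap1 (0.92) and Zfpm2 (0.88). With 6 points and so many genes, high values of r arise for many pairs.

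Promoter sequences of 8 of the 9 genes were taken from RefSeq on the build GRCm38.p6, with 2 starts for Neurod4, as the 250 bases before each start. They are shown for Neurog1 and Nhlh1, which were the lowest in CTIP2:GFP+ cells by mean difference, and for Neurod2 and Neurod6, which were above 0, because bHLH factors bind E-boxes. Each is written 5′ to 3′ on the strand of the gene, and capitals mark the letters CANNTG, which read the same on both strands. All 4 genes lie on the minus strand, Neurog1 at chr13:56252181-56252430, Nhlh1 at chr1:172057597-172057846, Neurod2 at chr11:98329646-98329895 and Neurod6 at chr6:55681264-55681513.
Neurog1: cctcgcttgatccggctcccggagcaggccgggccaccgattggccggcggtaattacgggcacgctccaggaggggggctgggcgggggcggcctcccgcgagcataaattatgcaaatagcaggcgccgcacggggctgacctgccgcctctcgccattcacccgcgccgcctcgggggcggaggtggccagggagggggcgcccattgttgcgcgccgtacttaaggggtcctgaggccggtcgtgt
Nhlh1: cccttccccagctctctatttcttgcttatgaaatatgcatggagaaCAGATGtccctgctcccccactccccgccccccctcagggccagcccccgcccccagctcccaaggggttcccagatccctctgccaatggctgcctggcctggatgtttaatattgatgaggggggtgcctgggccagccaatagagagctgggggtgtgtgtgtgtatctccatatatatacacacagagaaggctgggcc
Neurod2: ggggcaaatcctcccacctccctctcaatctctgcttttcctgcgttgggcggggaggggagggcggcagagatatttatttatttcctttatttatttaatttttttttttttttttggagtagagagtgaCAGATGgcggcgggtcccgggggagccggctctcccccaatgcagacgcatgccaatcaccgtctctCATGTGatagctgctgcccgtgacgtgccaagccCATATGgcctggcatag
Neurod6: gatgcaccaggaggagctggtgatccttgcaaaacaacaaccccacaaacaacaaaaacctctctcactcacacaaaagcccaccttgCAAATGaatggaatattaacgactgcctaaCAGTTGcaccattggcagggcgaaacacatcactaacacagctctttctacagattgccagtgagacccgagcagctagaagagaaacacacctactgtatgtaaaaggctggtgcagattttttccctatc

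The letters CANNTG were found before 4 of 9 starts, against 66.2% of the 32841 promoters in the table. Neurod2 held 3 of them, the nearest at 17 bases before the start, the next at 51 bases and the farthest at 118 bases. Neurod6 held 2, at 132 and 162 bases, Nhlh1 held 1 at 203 bases and Neurod1 held 1 at 242 bases. They were not in the windows of Neurog1, Neurog2, Eomes or either start of Neurod4. The form CAGATG, searched on both strands, is one that neurogenins and Neurod factors bind, and it stood before Neurod2 and Nhlh1, 2 of 9 starts against 14.4% of all promoters. Another form, CATATG, stood before Neurod1 and Neurod2, 2 of 9 starts against 3.47% of the promoters in the table. A form with the middle letters G and C stood before 0 of 9, against 13%. All of these forms are contained in the general one. The share of G and C was 71.2% before Neurog1, 58.4% before Nhlh1, 52.8% before Neurod2 and 46.0% before Neurod6, against a median of 52.4% over all promoters. A match is a description of the letters and not a bound site.

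Of the proteins that hold proneural factors back, the test was passed by 2 of 9 Hes, Hey and Id genes. Both were lower in CTIP2:GFP+ cells, against 0.567% of all genes. They were the Notch effectors Hes5 (-1.41, standard error 0.17, adjusted p = 0.031 from limma) and Hey1 (-1.37, standard error 0.15, adjusted p = 0.028 from limma). In 7 of 9 of these genes all CTIP2:GFP+ arrays lay below all CTIP2:GFP- arrays, against 7.85% of all genes. Hes1 (-0.92) was among them and did not pass. The median difference of the 9 inhibitors was -0.73, with daily medians of -0.42, -0.92 and -0.80. Both calls were lost without day 13 and after median centring, and that of Hey1 also when the arrays were not paired by day. Of the 3 E proteins with which proneural factors pair, 0 passed, and Tcf4 (0.85) and Tcf3 (-0.37) were without overlap in opposite directions. Of 10 other bHLH activators, 0 passed and 0 were over 2-fold different, with a median of -0.13. Nhlh2, the nearest relative of Nhlh1, named here after its values were seen, was at 5.48, 6.41 and 5.57 in CTIP2:GFP+ and at 6.82, 6.56 and 5.69 in CTIP2:GFP- cells.

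Over all genes, 0.797% passed the test as higher in CTIP2:GFP+ cells and 0.567% as lower. Of 18 genes known as proneural targets or marks of intermediate progenitors, 2 were higher past the test and 0 were lower. The 2 were Cbfa2t3, a transcriptional corepressor (1.68, standard error 0.21, adjusted p = 0.034 from limma), and Igfbpl1, a secreted protein of newborn neurons (1.49, standard error 0.22, adjusted p = 0.046 from limma). Among the rest, 5 genes lay lower in every CTIP2:GFP+ than in every CTIP2:GFP- array, against 7.85% of all genes, without passing. The largest of these differences were those of Cdkn1c, an inhibitor of the cell cycle (-1.29), Btg2, an antiproliferative gene of neurogenic divisions (-1.12), and Gadd45g, a stress and growth arrest gene (-1.03). Lzts1 was without overlap in the other direction (0.77). The median of the 18 was -0.23, with daily medians of -0.80, -0.73 and 0.75. The calls of Cbfa2t3 and Igfbpl1 were lost without day 13, after median centring and after quantile normalization, and that of Igfbpl1 also without pairing by day.

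**Figure D3:**
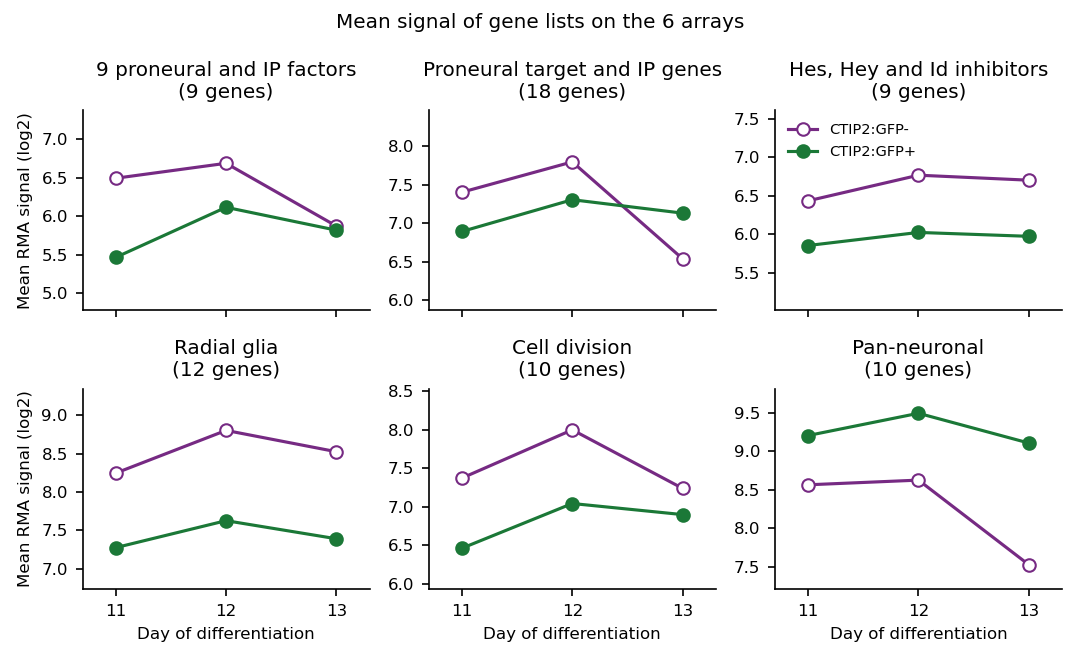
Mean RMA signal (y axis, log2) of 6 gene lists on the 6 arrays by day of differentiation (x axis), with filled points for CTIP2:GFP+ and open points for CTIP2:GFP- cells, 1 array per point; IP stands for intermediate progenitor. Each panel spans the same number of log2 units. The 9 factors are at 6.50, 6.69 and 5.87 in CTIP2:GFP- and at 5.47, 6.12 and 5.82 in CTIP2:GFP+ cells, and the pan-neuronal list drops to 7.52 in CTIP2:GFP- cells on day 13.

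Genes of the stages before and after the cascade were counted in the same way. Over all genes, 0.797% passed as higher and 0.567% as lower, while 9.05% lay higher and 7.85% lower without overlap. Of 12 radial glial genes, 6 passed the test and all 6 were lower in CTIP2:GFP+ cells, with a list median of -0.96. They were the glutamate transporter Slc1a3 (-2.72), the receptor Notch1 (-1.89), the intermediate filament genes Nes (-1.52) and Vim (-1.06), Hes5 and the factor Sox9 (-1.36). Of 10 genes of cell division, 0 passed, 8 were lower in every CTIP2:GFP+ array, and the median was -0.81. The largest differences were those of Mki67 (-1.09), Ccna2 (-1.003) and Bub1 (-0.92). Of 10 pan-neuronal genes, 2 passed and were higher, the synaptic vesicle gene Syt1 (2.34) and the microtubule gene Map2 (0.92), with a median of 1.03, and Dcx (1.70) and Tubb3 (1.58) were without overlap but did not pass. The call of Map2 was also lost with no pairing by day (adjusted p = 0.080 from limma), without day 11 (0.096), after quantile normalization (0.071) and with a trended and robust eBayes (0.071). Without day 13 and after median centring 0 of all genes passed, so that all calls of these lists were lost. Pax6, which acts upstream of Neurog2 in cortical radial glia and is named here after its values were seen, was at 6.02, 7.44 and 6.71 in CTIP2:GFP+ cells and at 8.01, 8.79 and 7.22 in CTIP2:GFP- cells (-1.28, standard error 0.29, adjusted p = 0.10 from limma). Of 9 genes of the cortical excitatory lineage, 1 passed, Bcl11b (1.87), the gene that carries the reporter used for the sort, and the median was -0.24. Of 11 genes of the ventral forebrain and GABA lineage, 5 passed and were higher in CTIP2:GFP+ cells, with a list median of 1.85. They were Dlx1 (3.22), Dlx5 (2.79), Lhx6 (2.50), Dlx2 (2.49) and Gad1 (1.85). Gad2 (2.27), Dlx6 (1.39) and Slc32a1 (0.57) were higher without overlap but did not pass. Nkx2-1 (0.78), Gsx1 (-0.27) and Gsx2 (-0.002), named here after their values were seen, overlapped between the fractions and did not pass.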

How the data were processed

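The authors measured RNA of sorted cells on GeneChip Mouse Gene 1.0 ST arrays and deposited log2 signals for 28853 probe sets, computed by RMA16 with the GeneSpring software. The sources used here do not state if the 6 arrays went through normalization as 1 set, nor the genome build or a filter. In the platform annotation, a lone symbol was given for 21789 probe sets, several symbols for 1621 and no symbol for 5443. Each gene was represented by the probe set with 1 symbol and the highest mean, and the 9 members matched the RefSeq gene table by Entrez ID. Day and fraction entered a linear model of the log2 values as factors (limma 3.58.1, R 4.3.3; 2 residual degrees of freedom), with eBayes and Benjamini-Hochberg adjustment at a threshold of 0.05. The study's statistics section names Student's test but does not tie it to the arrays, so it was run as an alternative. The day in the labels pairs the fractions, and same-day deviations from the fraction means correlated across genes at 0.11, 0.56 and 0.37. The members and lists were chosen with earlier results of these data known. Genes named are the members, Bcl11b, markers of cortical identity, from each list those past the test and up to 3 in each direction with the largest mean difference and no overlap between fractions, and for each member the 3 most correlated genes with a range of at least 1. The fit was also run on simulated data. No outcome of that run is given here, so it says nothing about how the fit behaves on these arrays. The number of arrays limits the precision. Alternatives are given at the end.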

Additional observations from a re-analysis of the deposited data

How the results depend on the processing

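The number of the 9 factors past the test was 0, and stayed 0 with no replicate block (lowest adjusted p 0.083), with the mean of probe sets, after median centring, after quantile normalization and with Student's test. It was 1 with a filter at the 20th percentile (Neurog1), 2 with a filter at the median (Neurog1 and Nhlh1, of 6 factors kept), 2 with no block and without the day 13 CTIP2:GFP- array (Neurog1 and Neurod4) and 3 with a trended and robust eBayes (Neurog1, Neurod4 and Nhlh1), all of them lower. Leaving out 1 day in turn gave 0 to 2 factors, with 0 without day 13, 1 without day 11 and 2 without day 12. The number of all genes past the test was 272, and it was 596 and 1030 with the filters at the 20th percentile and the median, 0 after median centring and with Student's test, 125 with no replicate block, 151 after quantile normalization, 1059 with the trended and robust eBayes and 0 to 1159 without 1 day in turn, with 0 without day 13, 552 without day 11 and 1159 without day 12. The causes were not tested. Neurog1, Neurog2, Insm1, Neurod4 and Nhlh1 were lower in CTIP2:GFP+ cells, and Neurod2 and Neurod6 higher, under every alternative that gave them a value, though Neurod2 came close to 0 without day 12 (0.028) and after quantile normalization (0.055). Leaving out 1 day in turn, Eomes ranged from -0.44 to 0.039 (above 0 without day 13) and Neurod1 from -0.71 to 0.36 (above 0 without day 11). The number over 2-fold lower was 2 to 4 under the alternatives that gave a fold. The changes with day gave 0 calls over all genes also after quantile normalization. Each factor had 1 probe set, so other probe sets could not be tried. The counts without overlap and without day 13 were chosen after seeing the data.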
